A study of Mus musculus with 9 samples.

Results

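The CXC chemokine genes examined were Cxcl1, Cxcl2, Cxcl3, Cxcl9, Cxcl10, Cxcl11 and Cxcl16, taken by gene name from a table of gene expression in RAW264.7 cells, and they were 7 of the 54532 genes measured. RAW264.7 is a wild-type mouse macrophage line that was started from ascites, so all libraries came from 1 genotype and 1 line. Poly-A mRNA was sequenced in 9 libraries, 3 for each of 3 groups. Control cells were untreated. LPS cells received lipopolysaccharide, the glycolipid that Gram-negative bacteria carry on their surface, at 1 μg/ml for 6 h. LPS + G-CDs cells received the same dose of LPS for 6 h together with G-CDs, carbon dots prepared from Glycyrrhiza (licorice), at 400 μg/ml. G-CDs were always given with LPS, and cells given G-CDs alone were not analysed here. The titles of the last group name G-CDs while its treatment label gives LPS alone, and the doses are those of the series' design text. The sample labels and the series text do not say whether the 3 libraries of a group came from separate cultures. The p-values thus measure the spread between these libraries, which may be technical.

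Expression was given as FPKM, the reads of a gene relative to its length and to the size of the library. Reads on genes ranged from 14752400 to 17312255 per library. The 8 macrophage markers Adgre1, Cd68, Csf1r, Lyz2, Itgam, Spi1, Ptprc and Fcgr1 all reached 1 FPKM, and their summed level ranged from 2236 to 3167 FPKM in control, 1647 to 1725 in LPS and 1304 to 1930 in LPS + G-CDs libraries. None of the markers looked at for neutrophils, T cells, B cells, fibroblasts, epithelium and endothelium reached 1 FPKM in any library, and the summed level of each list stayed at or below 1.24 FPKM. Genes with at least 1 FPKM in at least 3 libraries were tested (11585 genes), on log2(FPKM + 1), with limma. A gene was called when its Benjamini-Hochberg adjusted p over all tested genes was under 0.05. The macrophage markers moved in both directions between LPS and control cells, with Adgre1, Ptprc and Itgam called higher, Csf1r and Lyz2, the most abundant of them, called lower and Cd68, Spi1 and Fcgr1 not called. Cd68 stood apart in control replicate 1, at 86.8 FPKM against 324 and 418 in the other control libraries. Cxcl2, Cxcl10, Cxcl11 and Cxcl16 passed this filter. Cxcl1, Cxcl3 and Cxcl9 did not.

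Chemokines are small secreted proteins that draw leukocytes towards a source by binding receptors coupled to G proteins. The CXC class is named for a pair of cysteines near the start of the mature protein that are separated by a single residue. CXC chemokines that carry the residues glutamate, leucine and arginine (ELR) just before the first cysteine bind CXCR2 and attract neutrophils, and in the mouse Cxcl1, Cxcl2 and Cxcl3 encode such ligands. Cxcl9, Cxcl10 and Cxcl11 lack the ELR residues, are classical interferon targets and encode ligands of CXCR3, a receptor of activated T cells and natural killer cells. Cxcl16 encodes a ligand of CXCR6 that is anchored in the membrane and can be shed by proteases. Macrophages sense LPS through TLR4, which signals to NF-κB by way of MyD88 and to interferon-β by way of TRIF, and both arms reach chemokine genes.

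The coding sequence around the cysteine pair shows which class each gene belongs to. The following stretches were read from the reference transcripts of GRCm38, 5′ to 3′ on the sense strand, and the capitals mark the codons of the cysteine pair with the residue between them and, where present, the ELR codons before them.
Cxcl1: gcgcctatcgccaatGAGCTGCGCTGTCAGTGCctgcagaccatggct
Cxcl2: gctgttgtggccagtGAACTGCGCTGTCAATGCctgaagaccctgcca
Cxcl3: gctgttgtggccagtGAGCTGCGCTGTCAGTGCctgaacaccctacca
Cxcl9: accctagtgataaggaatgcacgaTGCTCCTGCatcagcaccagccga
Cxcl10: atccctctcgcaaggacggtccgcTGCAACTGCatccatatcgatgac
Cxcl11: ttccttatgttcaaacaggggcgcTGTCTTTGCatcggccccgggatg
Cxcl16: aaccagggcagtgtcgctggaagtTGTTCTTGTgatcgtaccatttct
Cxcl1, Cxcl2 and Cxcl3 held ELR codons and the other 4 genes did not. The pair began at codon 33 of 96 in Cxcl1, codon 36 of 100 in Cxcl2 and Cxcl3, codon 30 of 126 in Cxcl9, codon 30 of 98 in Cxcl10, codon 29 of 99 in Cxcl11 and codon 35 of 246 in Cxcl16, so that Cxcl16 had by far the longest coding sequence. Coding sequences of Cxcl2 and Cxcl3 were identical at 89.7% of 300 aligned bases, the highest of all pairs of the 7 genes. Bases opposite a gap were not counted, so values of pairs with the much longer Cxcl16, up to 74.3%, do not compare with the rest. Without Cxcl16, the other pairs lay between 56.0% (Cxcl10 and Cxcl11) and 78.8% (Cxcl1 and Cxcl2). The ELR genes were identical to each other at 75.7% or more of aligned bases and to Cxcl9, Cxcl10 and Cxcl11 at 65.3% or less.

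Of the 7 genes, 6 lie on chromosome 5 of GRCm38, in a cluster on the plus strand and another on the minus strand. On the plus strand Cxcl3 (ENSMUSG00000029379) runs from 90786103 to 90789600, Cxcl1 (ENSMUSG00000029380) from 90891241 to 90893115 and Cxcl2 (ENSMUSG00000058427) from 90903871 to 90905938, with 10755 bases between Cxcl1 and Cxcl2. On the minus strand Cxcl9 (ENSMUSG00000029417) runs from 92321347 to 92328079, Cxcl10 (ENSMUSG00000034855) from 92346638 to 92348889 and Cxcl11 (ENSMUSG00000060183) from 92359544 to 92365485. Cxcl16 (ENSMUSG00000018920) lies on the minus strand of chromosome 11 from 70453983 to 70459984. The annotation classes Cxcl11 as a polymorphic pseudogene, a gene that codes for protein in some mouse strains and not in others, and the other 6 as protein coding.

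Promoter sequences are shown because neighbouring genes of each cluster differed widely in level. The set of RefSeq promoters (GRCm38.p6) used here held an entry for 5 of the 7 genes, and for Cxcl11 and Cxcl16 no promoter is shown. Each line gives the 220 bases that end just before the gene, written 5′ to 3′ on the gene's own strand, and the capitals mark matches to the κB consensus, the binding motif of NF-κB, and to the core of the interferon-stimulated response element (ISRE), GAAA followed by any 2 bases and GAAA again.
Cxcl1 promoter, chr5:90891021-90891240 (+): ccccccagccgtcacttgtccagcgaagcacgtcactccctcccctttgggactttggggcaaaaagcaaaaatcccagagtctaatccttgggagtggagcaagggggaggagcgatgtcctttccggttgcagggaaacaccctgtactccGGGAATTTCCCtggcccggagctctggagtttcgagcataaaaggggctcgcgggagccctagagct
Cxcl2 promoter, chr5:90903651-90903870 (+): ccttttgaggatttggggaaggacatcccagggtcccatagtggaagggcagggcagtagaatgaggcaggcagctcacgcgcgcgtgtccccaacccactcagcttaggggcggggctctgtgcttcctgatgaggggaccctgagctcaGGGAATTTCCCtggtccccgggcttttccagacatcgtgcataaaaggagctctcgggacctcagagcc
Cxcl3 promoter, chr5:90785881-90786100 (+): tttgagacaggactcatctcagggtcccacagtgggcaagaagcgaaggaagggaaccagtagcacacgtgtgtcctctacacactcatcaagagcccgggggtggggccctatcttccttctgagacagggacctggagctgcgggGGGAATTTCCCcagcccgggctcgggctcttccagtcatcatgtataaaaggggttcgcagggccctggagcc
Cxcl9 promoter, chr5:92328080-92328299 (-): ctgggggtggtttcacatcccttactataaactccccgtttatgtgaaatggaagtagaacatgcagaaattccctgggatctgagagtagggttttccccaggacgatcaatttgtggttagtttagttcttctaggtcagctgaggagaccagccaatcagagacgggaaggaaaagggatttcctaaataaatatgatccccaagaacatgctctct
Cxcl10 promoter, chr5:92348890-92349109 (-): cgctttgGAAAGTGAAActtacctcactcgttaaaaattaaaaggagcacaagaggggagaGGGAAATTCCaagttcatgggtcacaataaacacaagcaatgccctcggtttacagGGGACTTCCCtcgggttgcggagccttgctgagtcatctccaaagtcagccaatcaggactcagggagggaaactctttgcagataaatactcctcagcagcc
Motifs were counted from 250 bases before to 50 bases after the RefSeq start, on both strands. Cxcl1, Cxcl2 and Cxcl3 each held the same 11 letters, which match the κB consensus on both strands in overlapping positions, from position -71 in Cxcl1, -97 in Cxcl2 and -73 in Cxcl3. Cxcl10 held a κB match at position -159 and another at -103, and an ISRE match at -213. A match to TGANTCA, the AP-1 motif, lay at -74 in Cxcl10 and at 31 in Cxcl9, a palindrome that reads the same on both strands. TATAAA, searched on the sense strand as exact letters, lay at -30 in Cxcl3 and at -195 in Cxcl9. Close variants of it, such as those in the printed Cxcl1 and Cxcl2 promoters, were not counted. These matches describe letters of the sequence, not binding. Of 32851 RefSeq promoters of 300 bases, 4.51% held the κB consensus, 0.554% held it from 2 or more start positions (overlapping ones counted), 3.44% held the ISRE core, 7.81% the AP-1 motif and 8.32% TATAAA. The κB letters were thus shared by Cxcl2 and by the neighbours whose transcripts were close to absent in these cells.

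Cxcl2, which encodes the neutrophil attractant MIP-2, was nearly silent in control cells and was the most abundant CXC transcript after LPS. Its level was 0.464, 0.966 and 0.788 FPKM in the control libraries, from 18, 34 and 29 reads. In the LPS libraries it was 1139, 1369 and 1142 FPKM, and in the LPS + G-CDs libraries 1172, 1712 and 1480 FPKM. The control libraries lay far below all 6 treated libraries, while LPS and LPS + G-CDs libraries overlapped. Mean levels were 0.739 ± 0.254 in control, 1217 ± 132 in LPS and 1455 ± 271 in LPS + G-CDs cells (FPKM, SD, n = 3), a ratio of 1646 between LPS and control. The log2 fold change was 9.46 (standard error 0.18, 95% interval 9.04 to 9.87, limma adjusted p = 4.7e-09), ranked 3 among the rises of all tested genes. In bulk RNA, more expressing cells and more RNA per cell cannot be told apart, which holds for each change given here.

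Cxcl1 and Cxcl3, the other ELR genes, stayed at or near 0 reads in every group. Cxcl1, which encodes the neutrophil attractant KC, had 2 reads in LPS replicate 2 (0.0773 FPKM) and 0 reads in the other 8 libraries. A count of 0 allows up to 3 reads, or 0.0853 to 0.116 FPKM for Cxcl1 in these libraries, counting error only. Cxcl3 had 0 reads in each control library, 1, 2 and 1 reads in the LPS libraries (0.0207, 0.0414 and 0.0197 FPKM) and 3, 6 and 2 reads in the LPS + G-CDs libraries (0.0593, 0.103 and 0.0407 FPKM). LPS and LPS + G-CDs libraries overlapped, and no fold change is given because nearly all these counts were at or below the 3 reads that a count of 0 allows. Of the 50-base words of the Cxcl3 coding transcript, 6.31% also occur in Cxcl2, which had 32560 to 58809 reads in the treated libraries, and whether the few Cxcl3 reads came from that shared sequence was not tested. In the reverse direction 5.75% of the Cxcl2 words occur in Cxcl3, and Cxcl1 shared 0% of its words with any other gene. Thus, of the 3 ELR genes with the same κB letters, Cxcl2 alone reached 1 FPKM in these libraries.

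The plot of the 7 genes by library shows the 3 groups side by side on the scale of the test.

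**Figure D1:**
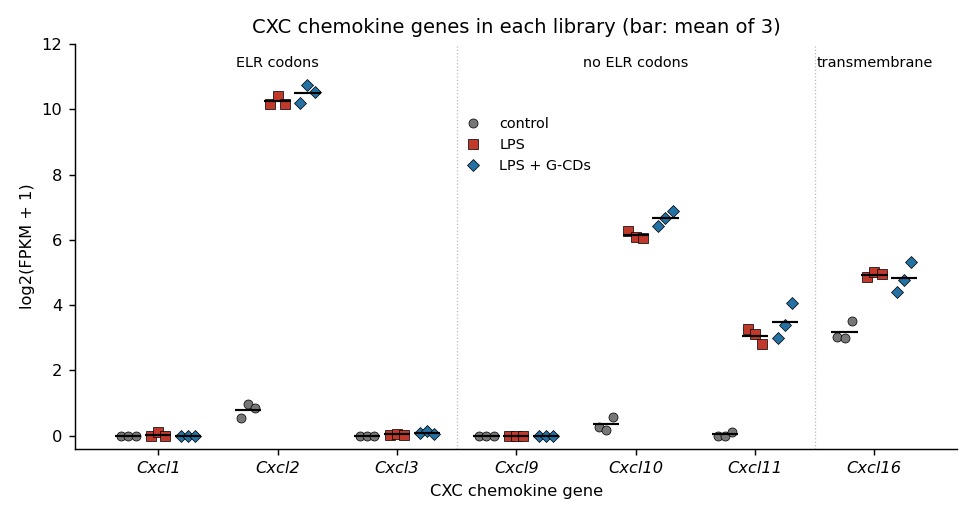
Level of each CXC chemokine gene in each of the 9 libraries as log2(FPKM + 1), with the 3 libraries of a group as symbols (circles control, squares LPS, diamonds LPS + G-CDs) and their mean as a bar. Cxcl2, Cxcl10, Cxcl11 and Cxcl16 were higher in all treated libraries than in the control libraries, and Cxcl1, Cxcl3 and Cxcl9 lay at or near 0 throughout.

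Cxcl10, which encodes the CXCR3 ligand IP-10, was the second most abundant CXC transcript after LPS. It measured 0.213, 0.130 and 0.499 FPKM in control libraries, from 9, 5 and 20 reads. It measured 75.9, 66.3 and 66.0 FPKM in LPS libraries and 84.5, 99.8 and 118 FPKM in LPS + G-CDs libraries. Here the 3 groups did not overlap at all, with the LPS + G-CDs libraries the highest. Between LPS (69.4 ± 5.65 FPKM) and control cells (0.281 ± 0.193 FPKM, SD, n = 3) the ratio was 247 and the log2 fold change 5.79 (standard error 0.16, 95% interval 5.43 to 6.15, limma adjusted p = 2.7e-08). Without control replicate 3, the highest of the controls, the ratio was 404 and the log2 fold change 5.91. The gene shares 133 exon bases with Art3 on the opposite strand, and no strand marking is named for these libraries. Art3 was listed at no more than 0.092 FPKM in any library, and how reads in the overlap were divided was not tested.

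Cxcl11, the next CXCR3 ligand along the chromosome and known as I-TAC, changed in the same direction at a lower level. Control libraries held 0, 0 and 6 reads (0, 0 and 0.0888 FPKM). LPS libraries measured 8.62, 7.64 and 5.95 FPKM, and LPS + G-CDs libraries 6.98, 9.58 and 15.6 FPKM. All treated libraries lay above all control libraries, and the treated groups overlapped each other. The means were 0.0296 ± 0.0513, 7.40 ± 1.35 and 10.7 ± 4.41 FPKM (SD, n = 3), and the log2 fold change between LPS and control was 3.02 (standard error 0.25, 95% interval 2.46 to 3.58, limma adjusted p = 2.6e-05). This size depends on the scale, because the control level is close to 0. With a pseudocount of 0.1 it was 5.91, and with limma's voom on the recovered reads 8.46, and the gene was called in both. Cxcl11 shares 1582 exon bases with Art3 and Gm2673 on the opposite strand, summed over both. Of the 50-base words of its coding transcript, 0% occur in any other gene. Gm2673 had 0 FPKM in all libraries, and how reads in this overlap were divided was not tested.

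Cxcl9, which encodes the CXCR3 ligand MIG, had 0 reads in all 9 libraries, which allows a level of up to 0.0530 to 0.0720 FPKM depending on the library. It lies 18558 bases from Cxcl10, so the cluster on the minus strand, like that on the plus strand, held a strongly expressed gene beside one with no or almost no reads. The map of the clusters shows the group means at each gene's position.

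**Figure D2:**
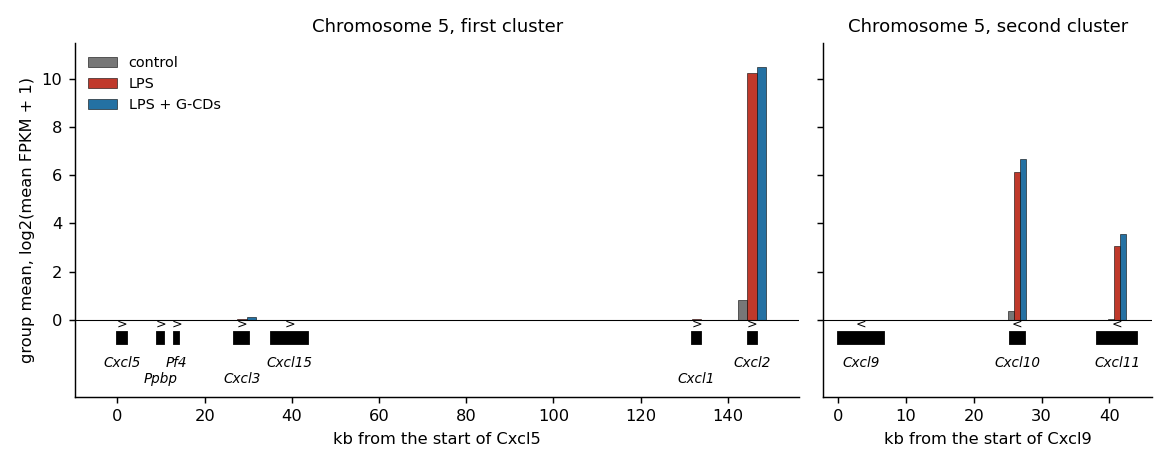
Group mean of each CXC ligand gene as log2(mean FPKM + 1), drawn at the middle of the gene over a map of its cluster on chromosome 5, with distance in kb from the start of the leftmost gene, arrowheads for the strand, and bars for control (grey), LPS (red) and LPS + G-CDs (blue). Within the cluster on the left Cxcl2 stands at 1217 FPKM after LPS, while Cxcl5, Ppbp, Pf4 and Cxcl15 lie at 0 and Cxcl1 and Cxcl3 at 0.0258 and 0.0273 FPKM.

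Cxcl16 differed from the others in being expressed before treatment. It measured 7.13, 6.90 and 10.4 FPKM in control libraries, 28.0, 31.0 and 30.0 FPKM in LPS libraries and 20.4, 26.4 and 38.6 FPKM in LPS + G-CDs libraries. The treated libraries lay above every control library, the LPS libraries lay close together, and the LPS + G-CDs libraries spread to both sides of them. The means were 8.14 ± 1.95, 29.7 ± 1.56 and 28.5 ± 9.30 FPKM (SD, n = 3). Between LPS and control the log2 fold change was 1.77 (standard error 0.23, 95% interval 1.25 to 2.28, limma adjusted p = 0.00044), a ratio of means of 3.64. Of the 50-base words of its coding transcript, 19.0% also occur in Zmynd15, which shares 552 exon bases on the opposite strand and measured 0.925, 3.04 and 2.02 FPKM on average in control, LPS and LPS + G-CDs cells. How reads in that overlap were divided was not tested.

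In all, Cxcl2, Cxcl10, Cxcl11 and Cxcl16 were called higher in LPS than in control cells, against 31.3% of tested genes called in either direction and 15.8% called higher. Without overlap between the groups, 52.5% of tested genes separated in either direction and 27.4% were higher. Cxcl2, Cxcl10 and Cxcl11 were below 1 FPKM in every control library and entered the test through their treated libraries alone, so the number of members called adds nothing to their levels. The calls were kept in each of the 20 alternative analyses. Of all tested genes 1827 were called higher and 1803 called lower. This split moved to 1015 and 3106 when each library was rescaled to a common sum (TPM) and to 1154 and 3124 with voom.

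The order of levels changed with LPS. In control cells Cxcl16 came first, at a mean of 8.14 FPKM against 0.739 for Cxcl2 and without overlap, and Cxcl2 came before Cxcl10, whose libraries overlapped with it. After LPS the order was Cxcl2, Cxcl10, Cxcl16 and Cxcl11, with ratios of mean FPKM between neighbours of 17.5, 2.34 and 4.01 and no overlap of libraries. With G-CDs the order was the same and the neighbours did not overlap, with ratios of 14.4, 3.54 and 2.66. Cxcl16 gave 86.3% to 91.3% of the summed FPKM of the 7 genes in control libraries and 1.43% to 2.41% in treated libraries, where Cxcl2 gave 89.6% to 92.9%. FPKM divides by the length of all annotated exons of a gene, which for Cxcl2 is 2068 bases and for Cxcl10 2252 bases. Their main coding transcripts are shorter, 1109 and 1094 bases, and on those lengths the mean levels in LPS cells were 2268 FPKM for Cxcl2, 143 for Cxcl10, 33.2 for Cxcl16 and 17.8 for Cxcl11, in the same order.

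The ELR genes also shared a feature in their messages. The pentamer ATTTA, the core of AU-rich elements that mark short-lived inflammatory mRNAs, occurred 11 times in the 734-base 3′ untranslated region of Cxcl2, 7 times in the 592 bases of Cxcl1 and 5 times in the 645 bases of Cxcl3. It occurred 3 times in Cxcl9, 2 times each in Cxcl10 and Cxcl16 and once in Cxcl11. Of 19698 annotated genes, 3.44% held at least 11 copies, 9.10% at least 7 and 15.8% at least 5, and the median was 1 copy. Per kilobase, the 3 ELR genes held 15.0, 11.8 and 7.75 copies against a median of 0.987 over these genes. Cxcl1, with 7 copies and next to no reads, and Cxcl2, with 11 copies and the highest level, were thus alike in this feature and unlike in level.

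The next comparison asked whether G-CDs changed the response of these genes to LPS. Between LPS + G-CDs and LPS cells limma called 0 members, against 0.492% of all tested genes, and voom on the recovered reads also called 0. Cxcl10 was the 1 member with an unadjusted p under 0.05. The share of all genes called ran from 0.095% without LPS + G-CDs replicate 2 to 2.21% without LPS + G-CDs replicate 1. Cxcl10 was higher in all 3 LPS + G-CDs libraries (101 ± 16.8 FPKM) than in any LPS library, a ratio of means of 1.45 and a log2 fold change of 0.52 (standard error 0.16, 95% interval 0.16 to 0.88, unadjusted p = 0.01, limma adjusted p = 0.25). Of all tested genes, 27.9% separated without overlap in this comparison and 12.9% were higher, while limma called 0.25% higher. Over the 20 alternatives the Cxcl10 value ranged from 0.31 to 0.64 and its adjusted p from 0.059 to 0.58.

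For the other 3 members the LPS + G-CDs libraries overlapped the LPS libraries. Cxcl2 had a log2 fold change of 0.25 (standard error 0.18, 95% interval -0.17 to 0.66, limma adjusted p = 0.44), so the interval holds differences from a slight fall to a rise. The Cxcl2 value was 0.39 without LPS + G-CDs replicate 1 and 0.12 without replicate 2. Cxcl11 had a value of 0.43 (standard error 0.25, 95% interval -0.13 to 0.98, limma adjusted p = 0.36), which became 0.67 without LPS + G-CDs replicate 1 and 0.14 without replicate 3. Cxcl16 had a value of -0.10 (standard error 0.23, 95% interval -0.62 to 0.41, limma adjusted p = 0.79), which turned to 0.10 without LPS + G-CDs replicate 1 and became -0.34 without replicate 3. These intervals do not show that levels were equal in LPS and LPS + G-CDs cells. At the threshold of an unadjusted p under 0.01 and more than 1.5-fold, 2.49% of tested genes and 0 of the members were called.

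The LPS + G-CDs libraries differed among themselves by gene length. Among tested genes with a median length of 2351 bases, near the 2068 of Cxcl2 and the 2252 of Cxcl10, replicate 1 lay at -0.21 from its group mean on the log2 scale, replicate 2 at -0.01 and replicate 3 at 0.22, while the LPS libraries lay between -0.03 and 0.02. Among those with a median length of 3758 bases, near the 3794 of Cxcl11, the LPS + G-CDs libraries lay at -0.05, 0.01 and 0.04. Cxcl10 deviated from its own group mean by -0.24 in replicate 1 and 0.24 in replicate 3, close to the genes of its length. Cxcl11 deviated by -0.49, -0.08 and 0.57, in the same order as the genes of its length but far more widely. Cxcl16 deviated by -0.42, -0.06 and 0.47. Cxcl2 deviated by -0.29, 0.25 and 0.04 and was thus highest in replicate 2, where the genes of its length lay at -0.01. The part of gene length in these deviations was not tested. With the trend on gene length removed, the log2 fold changes between LPS + G-CDs and LPS cells were 0.01 for Cxcl2, 0.31 for Cxcl10, 0.37 for Cxcl11 and -0.23 for Cxcl16, and 0 members were called. The plot of the single libraries shows this spread beside the intervals.

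**Figure D3:**
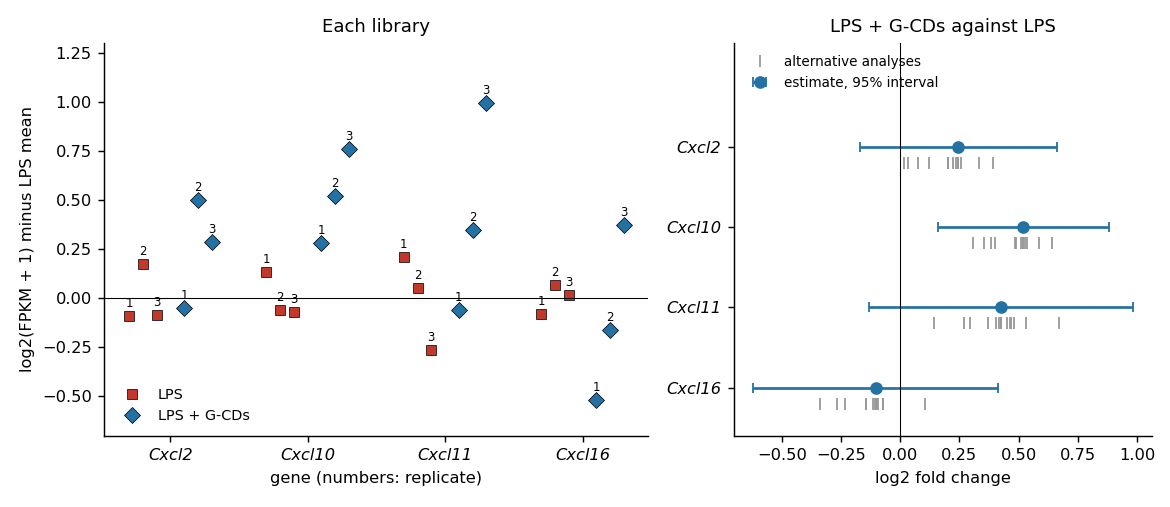
Left, log2(FPKM + 1) of the 4 tested CXC genes in each LPS (squares) and LPS + G-CDs (diamonds) library minus the LPS mean, with replicate numbers; right, the log2 fold change between LPS + G-CDs and LPS with its 95% interval (dot and bar) and the values of the alternative analyses (ticks). The Cxcl10 interval, 0.16 to 0.88, lies above 0, and the intervals of Cxcl2, Cxcl11 and Cxcl16 include 0.

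Against control cells, which also served the comparison with LPS, LPS + G-CDs cells showed higher levels of the same 4 genes. The log2 fold changes were 9.70 for Cxcl2 (limma adjusted p = 6.5e-09), 6.31 for Cxcl10 (adjusted p = 3e-08), 3.44 for Cxcl11 (adjusted p = 1.3e-05) and 1.66 for Cxcl16 (adjusted p = 0.00077), where 25.3% of tested genes were called and 12.8% were called higher. In none of the 4 did the LPS + G-CDs libraries overlap the control libraries, as was so for 34.3% of all tested genes in either direction and 17.7% that were higher. Of all genes called, 1488 were higher and 1439 lower, a split that moved to 755 and 3255 with TPM and to 1005 and 2545 with voom. The ratios of mean FPKM to control were 1968 for Cxcl2, 359 for Cxcl10 and 3.50 for Cxcl16. That of Cxcl10 was 587 without control replicate 3, and none is given for Cxcl11, whose control mean rests on the 6 reads of control replicate 3.

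The receptors for these ligands were sparse in this line. Of 8 receptors looked at, Cxcr3 and Cxcr5 passed the filter. Cxcr3, the receptor for Cxcl9, Cxcl10 and Cxcl11, measured 3.79, 5.50 and 6.85 FPKM in control, 3.34, 2.51 and 1.87 in LPS and 3.12, 2.85 and 4.11 in LPS + G-CDs libraries. All LPS libraries lay below all control libraries, and the log2 fold change was -0.83 (standard error 0.22, limma adjusted p = 0.02), while Cxcl10 and Cxcl11 rose and Cxcl9 had 0 reads. The call was lost without control replicate 2 or 3 or LPS replicate 2 or 3 (adjusted p = 0.056, 0.065, 0.063 and 0.079) and with no filter (adjusted p = 0.053). Between LPS + G-CDs and control the libraries overlapped and Cxcr3 was not called (log2 fold change -0.53, standard error 0.22, limma adjusted p = 0.12), but it passed the threshold in 4 of 19 alternatives.

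Cxcr5, the receptor for the B cell attractant Cxcl13, measured 1.12, 1.52 and 1.40 FPKM in control, 2.54, 2.48 and 1.90 in LPS and 2.39, 2.98 and 4.08 in LPS + G-CDs libraries. Control libraries were the lowest of the 3 groups without overlap. The log2 fold change was 0.49 between LPS and control (standard error 0.17, limma adjusted p = 0.056) and 0.81 between LPS + G-CDs and control (limma adjusted p = 0.0083), and the first of these passed the threshold in 6 of 19 alternatives. Neither receptor was called between LPS + G-CDs and LPS cells (0.30 for Cxcr3 and 0.31 for Cxcr5). Cxcr2, through which Cxcl2 acts on neutrophils, had 0 reads in all libraries, as had Cxcr4 and Ackr1. Cxcr6, the receptor for Cxcl16, did not exceed 0.563 FPKM. Of the 8 other CXC ligands, Cxcl5, Cxcl12, Cxcl15, Ppbp and Pf4 had 0 reads, and Cxcl13, Cxcl14 and Cxcl17 did not exceed 0.374 FPKM.

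Genes of the pathways that lead to CXC transcription were read in the same fits. Of 17 genes of the LPS receptor and its adaptors, 16 were tested, and between LPS and control 8 were higher, 1 was lower and 7 were not called, with a median log2 fold change of 0.55 against 0.02 over all tested genes. Of all tested genes 31.3% were called in this comparison and 15.8% were called higher, and the counts of the lists that follow stand beside the same shares. The kinase gene Irak2 rose by 2.84, the co-receptor gene Cd14 by 2.40 and Irak3, an inhibitory member of the kinase family, by 2.11 (limma adjusted p = 2.1e-07, 8.3e-05 and 1.3e-05). Tlr4 itself was the gene called lower, among 5 that were lower in value. It went from 3.47, 6.41 and 3.38 FPKM in control to 1.85, 2.24 and 1.92 in LPS libraries (log2 fold change -0.81, limma adjusted p = 0.024). Its call was not followed through the alternatives.

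The next list held NF-κB subunits, their inhibitors and the IκB kinase (IKK) genes Chuk, Ikbkb and Ikbkg. Of its 15 tested genes 12 were higher (15.8% over all tested genes), 0 lower and 3 not called, with a median of 2.12. The 3 not called were the IKK genes. Nfkbiz, which encodes an atypical nuclear IκB protein, rose by 5.25, the deubiquitinase gene Tnfaip3 (A20) by 3.56 and Nfkbia (IκBα) by 3.17 (limma adjusted p = 7.6e-08, 1.3e-06 and 5.5e-07). In the interferon arm 7 of 16 genes were higher and 2 lower, with a median of 0.42. Ifnb1 (interferon-β) went from 0 reads in each control library to 10.1, 10.1 and 11.8 FPKM with LPS, the transcription factor gene Irf7 rose by 4.25 and the signal transducer gene Stat2 by 2.04 (limma adjusted p = 7.2e-07 and 6.6e-05). Ifnb1 entered the test through its treated libraries alone, so its place among the higher genes adds nothing to that count.

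Among 10 genes whose products bind AU-rich mRNAs or control such binding, 4 were higher, 2 lower and 4 not called, against 31.3% of all tested genes called and 15.8% higher, with a median of 0.13. Zfp36 (tristetraprolin), which promotes decay of AU-rich messages, rose by 4.35 and Zc3h12a (Regnase-1), an RNase, by 3.57, while Zfp36l2, a relative of Zfp36, fell by 1.57 (limma adjusted p = 8.7e-08, 3.3e-07 and 0.00078). Of 10 genes whose products cut or shed chemokines, 6 were tested and 3 were higher, with a median of 0.42. One of them, the gelatinase gene Mmp9, measured 0.588, 0.614 and 0.413 FPKM in control and 10.5, 10.7 and 9.87 in LPS libraries. It too entered the test through its treated libraries alone, so its call adds nothing to the count. Adam17, a sheddase gene, had a value of 0.87 (adjusted p = 0.043) and the cathepsin gene Ctsl of 0.45 (adjusted p = 0.049), and these calls were lost in 10 and 13 of 20 alternatives, for Ctsl with an adjusted p of 0.057 when the replicate number was a block.

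Between LPS + G-CDs and LPS cells 2 genes of these lists were called, where 0.492% of all tested genes were called. Tnfaip3 went from 44.2, 43.6 and 41.5 FPKM in LPS to 23.8, 20.2 and 15.6 in LPS + G-CDs libraries (log2 fold change -1.10, standard error 0.18, limma adjusted p = 0.043). Mmp9 went from 10.5, 10.7 and 9.87 to 4.59, 5.77 and 4.75 FPKM (-0.91, standard error 0.12, limma adjusted p = 0.018). Both separated the groups without overlap, as did 27.9% of all tested genes. The call was lost in 11 of 20 alternatives for Tnfaip3 and in 7 of 20 for Mmp9. Both lost it without any 1 of the LPS libraries or without LPS + G-CDs replicate 2 or 3, with adjusted p from 0.099 to 0.24 for Tnfaip3 and 0.056 to 0.14 for Mmp9. Both also lost it with a pseudocount of 0.1 (adjusted p = 0.098 and 0.064) and in the fit of the 6 libraries alone (adjusted p = 0.078 and 0.055). Tnfaip3 further lost it without control replicate 2, with no filter, with TPM and with voom (adjusted p = 0.092, 0.089, 0.14 and 0.078).

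Between LPS + G-CDs and LPS cells the LPS receptor and adaptors had a median of -0.25, with 5 genes higher and 11 lower in value. For NF-κB subunits, inhibitors and IKK genes together the median was -0.16, with 4 higher and 11 lower. For the interferon arm the median was -0.01, with 7 higher and 9 lower. AU-rich binding genes had a median of -0.30, with 1 higher and 9 lower, and genes of chemokine processing a median of -0.17, with 1 higher and 5 lower. Over all tested genes the median was 0.02. Of the members, 3 were higher and 1 lower in value. The plot of the lists sets these beside the CXC genes.

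**Figure D4:**
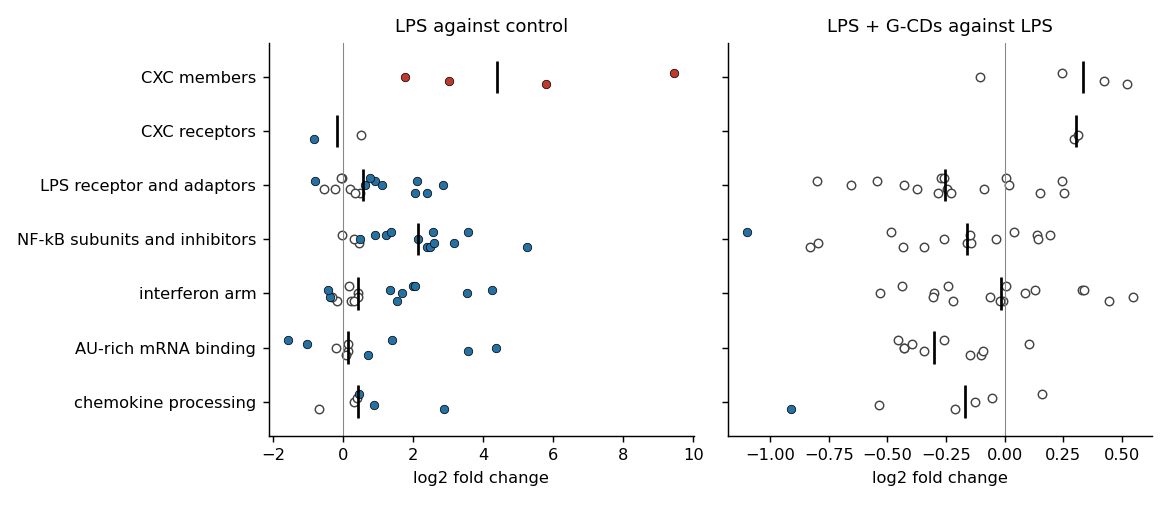
Log2 fold change of each tested gene of each list between LPS and control (left) and between LPS + G-CDs and LPS (right), on separate scales, with filled dots for genes called at an adjusted p under 0.05, open dots for the others and a bar for the median of the list. On the left Cxcl2 lies farthest right at 9.46. On the right Tnfaip3 at -1.10 and Mmp9 at -0.91 are the filled dots. The row of NF-κB subunits and inhibitors also holds the IKK genes.

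Against control, LPS + G-CDs cells had 6 higher and 2 lower genes of the LPS receptor and adaptors. Among NF-κB subunits, inhibitors and IKK genes 11 were higher and 0 lower, and in the interferon arm 9 higher and 1 lower. Among AU-rich binding genes 4 were higher and 3 lower, and among processing genes 2 higher and 1 lower. The tested genes of these lists numbered 16, 15, 16, 10 and 6, and over all tested genes 25.3% were called and 12.8% were higher. The higher genes include Ifnb1 and Mmp9, which entered the test through treated libraries alone and whose calls add nothing to these counts. Cd14 rose by 2.55, Irak2 by 2.41 and the TRIF gene Ticam1 by 1.82. Nfkbiz rose by 4.42, Nfkbia by 3.03 and Tnfaip3 by 2.46. Irf7 rose by 4.38 and Stat2 by 1.79, and Ifnb1, with 0 reads in control libraries, measured 6.46, 7.87 and 11.9 FPKM. Zfp36 rose by 3.92 and Zc3h12a by 3.23, Zfp36l2 fell by 2.03, Ctsl rose by 0.61, and Adam10, a sheddase gene that acts on Cxcl16, fell by 0.91 (limma adjusted p = 0.03, lost in 9 of 20 alternatives, while that of Ctsl was lost in 6).

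Genes with a profile like that of each tested member were found by the root mean square difference between log2(FPKM + 1) profiles over the 9 libraries, each centred on its own mean. For Cxcl2 these were Acod1, which makes itaconate (0.26), Ccl5, a CC chemokine gene (0.40) and Csf3, which encodes G-CSF (0.41). For Cxcl10 they were Phlda1 (0.24), the interferon target Isg15 (0.33) and Tnf (0.36). For Cxcl11 they were Apol9a (0.19), Tmem171 (0.19) and the interferon target Rtp4 (0.20), and for Cxcl16 they were Rab20 (0.17), Tmem106a (0.19) and A530040E14Rik (0.19). Mean levels of Acod1 were 2.31, 2624 and 2271 FPKM in control, LPS and LPS + G-CDs cells and so, unlike Cxcl2, lower with G-CDs than without by their mean, whereas Isg15 measured 2.51, 237 and 394 FPKM and, like Cxcl10, was highest in LPS + G-CDs cells by its mean.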

How the data were processed

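The authors extracted RNA with TRIzol, purified poly-A mRNA, made cDNA with random hexamers, sequenced it on an Illumina NovaSeq instrument and deposited FPKM values per gene with gene lengths and coordinates. Submitters' processing notes name GRCm38 (mm10). The aligner, the counter and the scaling of FPKM are not given in the sources used here. All 9 columns of FPKM were mapped to samples by name. FPKM times gene length came out as whole reads, within 0.05 reads, for 100.0% of values, which gave the reads. The library size the authors divided by was 1.108 to 1.14 times the reads on genes in control, 0.929 to 0.936 times in LPS and 0.88 to 0.98 times in LPS + G-CDs libraries, so the values hold a scaling between libraries. Gene lengths equaled the union of exons in GENCODE mouse release M21 for all 7 members.

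Genes with at least 1 FPKM in at least 3 of 9 libraries were fitted as log2(FPKM + 1) with limma 3.58.1 (R 4.3.3; lmFit, eBayes with trend) in 1 model of 3 groups, two-sided, with Benjamini-Hochberg adjustment over all 11585 genes. Fold changes on this scale understate changes of genes with low values. The fit was tested on simulated data with independent normal noise for each gene. These data held no gene-length trend or scaling between libraries, so that test does not bear on the calls given here. Sequences were read from GENCODE transcripts and RefSeq promoters, and Biopython 1.88 aligned coding sequences. The 95% intervals are limma's and rest on the spread between libraries, while floors of 3 reads cover counting error only. The members and the lists were chosen with earlier results of these data known. Beyond the members, up to 3 called genes with the largest change were named per list and comparison, every receptor or other CXC ligand past the filter, and the 3 genes closest in profile to each tested member. Tlr4, Isg15 and Acod1 were described further after their values were seen.

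Groups share replicate numbers, and no source says what a number marks. Deviations from group means of same-numbered control and LPS libraries correlated at 0.103, 0.137 and 0.113. The highest values with another number were -0.018, -0.014 and -0.016. Correlations this small do not show that a number marks a pair, and the main fit used no pairing. As alternatives, the pseudocount was set to 0.1, the filter was dropped or raised to 5 FPKM, libraries were rescaled (TPM, quantile or median-of-ratios), comparisons were fitted from their own 6 libraries, the trend in eBayes was dropped, voom was run on recovered reads, a gene-length trend was removed, the replicate number was blocked and single libraries were omitted.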

Additional observations from a re-analysis of the deposited data

How the results depend on the processing

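Between LPS and control and between LPS + G-CDs and control, the 4 tested members kept direction and call in the 20 alternatives, with Cxcl2 at 9.31 to 10.55, Cxcl10 at 5.67 to 7.82, Cxcl11 at 2.91 to 8.46 and Cxcl16 at 1.52 to 1.94 in the comparison with LPS. With no filter, Cxcl3 was also called between LPS + G-CDs and control, on 3, 6 and 2 reads against 0. Between LPS + G-CDs and LPS the members called stayed at 0, and Cxcl16 turned from -0.10 to 0.10 (adjusted p = 0.73; 0.39 to 0.91 over the alternatives) without LPS + G-CDs replicate 1, and lay between -0.34 and 0.10 when 1 library was left out. Of all genes, 57 were called in that comparison, 25 with a pseudocount of 0.1, 37 with TPM, 25 from its 6 libraries alone and 92 with the length trend removed. Without 1 library it was 11 to 256: 11 without LPS + G-CDs replicate 2, 256 without replicate 1, 29 without replicate 3, 14, 12 and 21 without LPS replicates 1, 2 and 3, and 23 without control replicate 2. Between LPS + G-CDs and control, 2927 genes became 1789 from the 6 libraries alone and 1914 to 3245 without 1 library, the lowest without LPS + G-CDs replicate 2. TPM moved the median of all genes to -0.21 between LPS and control, -0.12 between LPS + G-CDs and LPS and -0.33 between LPS + G-CDs and control, and voom to -0.24 between LPS and control and -0.22 between LPS + G-CDs and control. The causes were not tested. With the replicate number as a block, 4, 0 and 4 members and 4104, 53 and 3347 genes were called. Ctsl, between LPS and control, was the 1 named gene to lose its call. Same-numbered libraries of LPS + G-CDs correlated at 0.28, 0.057 and 0.653 with control and at 0.095, 0.08 and 0.143 with LPS. Control replicate 2 correlated at 0.504 with an LPS + G-CDs library of another number. What a number marks cannot be told from these values. Depth limits Cxcl1, Cxcl3 and Cxcl9, whose levels rest on 0 to 6 reads per library.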
